A study of Mus musculus with 3 samples.

Results

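The 10 genes described here encode the receptors for type I and type II interferon (Ifnar1, Ifnar2, Ifngr1 and Ifngr2), receptors for nucleic acids in endosomes (Tlr3, Tlr7 and Tlr9), sensors of nucleic acids in the cytosol (Ifih1 and Zbp1) and the adaptor Myd88. They were taken by symbol from the 32285 genes of the files, and all 10 are listed there. Their unique molecular identifiers (UMIs), which count captured RNA molecules, were compared across kidney cell classes and across 3 libraries.

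Glomeruli were isolated from mouse kidneys by digestion with collagenase V, and their cells were captured in droplets for single-cell RNA sequencing. One condition gave 1 library each: control mice, untreated MRL/lpr mice, and MRL/lpr mice that received 800000 hUC-MSCs each, mesenchymal stem cells taken from human umbilical cord. MRL/lpr mice carry the lpr mutation of Fas and develop a lupus-like disease, and both MRL/lpr groups were screened for lupus nephritis at about 16 weeks of age and taken on day 21. The strain of the control mice and the number of mice behind a library are not given in the sources used here for this experiment. With 1 library a condition, no test between conditions can be made, and ratios between libraries carry intervals for counting error only.

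Barcodes with at least 1000 UMIs and at most 10% mitochondrial UMIs were kept, which left 11018 cells of control mice, 14109 of untreated MRL/lpr mice and 16586 of treated MRL/lpr mice. A cell entered a class by the UMIs of that class's marker genes, so a class is a set of cells gated on markers and is named with the ending "-like". The largest classes were endothelial-like cells (5435, 3942 and 4383 cells in control, untreated and treated mice) and mesangial-like cells (1179, 2012 and 2288), followed by podocyte-like cells (2522, 1058 and 318) and monocyte-like cells (121, 1365 and 1764). In each library, 10 of the 11 endothelial markers, 9 of 9 mesangial markers, 10 of 10 podocyte markers and 8 of 8 monocyte markers were at least 2-fold higher in their class than in the other cells. The gate used these same markers, so this follows in part from the gate and is no separate check of the classes. Macrophage-like cells numbered 7 in control mice, 782 in untreated and 1390 in treated mice, so the control level of that class is not given. Total counts lay between 90812138 and 103319588 UMIs a library, and 35 to 61 barcodes of kept cells were shared between a pair of libraries. RNA outside cells, profiled from barcodes with 1 to 100 UMIs, made up 3.09% of the UMIs in podocyte-like cells of control mice, 11.3% in untreated and 17.6% in treated MRL/lpr mice, and 4.28%, 12.8% and 10.6% in endothelial-like cells.

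Type I interferons bind a receptor of Ifnar1 and Ifnar2, and interferon gamma binds a receptor of Ifngr1 and Ifngr2. Both act through Janus kinases and STAT transcription factors, which switch on genes through the interferon-stimulated response element and the gamma-activated site. Tlr3 binds double-stranded RNA, Tlr7 single-stranded RNA and Tlr9 DNA with unmethylated CpG, all within endosomes. Tlr7 and Tlr9 signal through Myd88, whereas Tlr3 uses Ticam1. Ifih1, also called MDA5, binds long double-stranded RNA in the cytosol, and Zbp1 binds nucleic acids in the Z conformation. Nucleic acids in immune complexes and the type I interferon they induce are long known in lupus nephritis, and Tlr7 is closely tied to lupus in mice.

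In the mm10 assembly, Ifnar2 (chr16:91372783-91405589), Ifnar1 (chr16:91485238-91507441) and Ifngr2 (chr16:91547072-91565623) lie on the plus strand of 1 chromosome, apart from Ifngr1 (chr10:19591949-19610229, plus strand). Tlr3 is at chr8:45395665-45411080, Tlr7 at chrX:167304929-167330558, Ifih1 at chr2:62595798-62646255, Zbp1 at chr2:173206612-173218923 and Myd88 at chr9:119335934-119341411, all on the minus strand, and Tlr9 is at chr9:106222598-106226883 on the plus strand. The annotated span of Slc22a14 runs over Myd88 on its own strand and Acaa1a overlaps it on the other, so a part of the Myd88 counts could belong to a neighbour. Gm45542 lies antisense to Tlr3, and the annotation gives Gm21970 on the strand of Ifnar2.

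RefSeq promoter sequences of 300 bases (250 before and 50 after the start, GRCm38.p6) were at hand for 8 of the 10 genes, all but Tlr7 and Zbp1. On either strand, the core GAAANNGAAA of the interferon-stimulated response element was present in Ifih1 and Myd88, and in 3.44% of 32851 promoters. The gamma-activated site TTCNNNGAA was present in Ifnar1, Ifnar2 and Myd88, and in 8.30% of those promoters, and neither motif was found in Ifngr1, Ifngr2, Tlr3 or Tlr9. Ifih1 and Myd88 are shown here because they hold the response element core and because their levels in endothelial-like cells differed between libraries. The windows are chr2:62646206-62646505 for Ifih1 and chr9:119339969-119340268 for Myd88, both read 5′ to 3′ on the minus strand, with motif matches in capitals.
Ifih1: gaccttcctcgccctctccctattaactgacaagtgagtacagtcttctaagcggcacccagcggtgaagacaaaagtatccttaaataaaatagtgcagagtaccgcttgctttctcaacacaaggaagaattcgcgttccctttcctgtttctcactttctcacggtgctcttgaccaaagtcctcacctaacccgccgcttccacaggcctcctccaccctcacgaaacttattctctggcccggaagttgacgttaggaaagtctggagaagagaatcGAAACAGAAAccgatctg
Myd88: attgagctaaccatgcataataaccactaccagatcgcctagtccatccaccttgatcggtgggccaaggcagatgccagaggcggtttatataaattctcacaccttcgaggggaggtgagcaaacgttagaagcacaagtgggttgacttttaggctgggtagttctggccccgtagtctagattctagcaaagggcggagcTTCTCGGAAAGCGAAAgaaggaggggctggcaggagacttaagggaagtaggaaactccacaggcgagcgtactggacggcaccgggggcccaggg
In Ifih1 the core lies 33 to 42 bases after the start. In Myd88 it lies at -40 to -31 and overlaps a gamma-activated site at -46 to -38, so the capitals there are a single run of both. A match describes the letters of the window and does not show that a factor binds there.

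Levels are given as CPM, the UMIs of a gene per 1000000 UMIs of its class and library. Classes were compared by edgeR's quasi-likelihood test on UMIs summed over each class and library, with at least 20 cells a sum, which gave 38 sums and 16088 genes. Each class was set against the mean of the other classes, the library was a term of the model, and p-values were adjusted over all genes by the Benjamini-Hochberg method. The 3 libraries are 3 conditions and serve here as the replicates of a class. The spread named below is the one left after the class and library terms, estimated for each gene over all classes together. Of the 10 genes 9 passed the filter on low counts, all but Tlr9. Across the classes, with 9 genes tested in each, there were 34 calls of a higher level and 19 of a lower level at an adjusted p under 0.05. Without the untreated MRL/lpr library these counts were 14 and 4.

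In monocyte-like cells 8 of the 9 genes were higher, all but Tlr3, where 20.5% of all genes were called higher and 7.24% lower. Neutrophil-like cells had 6 higher (11.9% of all genes, 6.71% lower) and macrophage-like cells had 4 higher, namely Ifnar2, Ifngr2, Tlr7 and Ifih1 (17.1%, with 5.74% lower). Among the cells of the glomerulus itself, mesangial-like cells had Ifnar2, Ifngr2, Tlr3 and Ifih1 higher (23.8% of all genes) and none of the 9 lower (6.53%). Endothelial-like cells had Tlr3, Ifih1 and Myd88 higher (19.1%) and Ifnar1 and Ifngr1 lower (7.09%). Podocyte-like cells had Ifngr1 and Tlr7 higher (28.4%) and Ifnar1, Ifngr2, Ifih1 and Zbp1 lower (10.6%). T cell-like cells had Ifnar1 and Ifngr1 higher (18.5%) and Ifngr2 lower (6.94%), and NK cell-like cells had the same pair higher (7.98%) and Ifngr2 and Ifih1 lower (5.60%). Proximal tubule-like cells had 6 of the 9 lower, all but Tlr3, Tlr7 and Myd88, and 0 higher. Distal nephron and collecting duct-like cells had 3 lower (Ifnar2, Ifngr1 and Zbp1) and Tlr3 higher. Smooth muscle and renin-like cells had Ifngr1 lower, and dendritic-like and erythroid-like cells had Tlr3 higher. The shares of all genes in these classes are not given, so their counts are not read as a result about the genes. Against the shares given, the 8 of 9 in monocyte-like cells is far above that of all genes, and the 2 of 9 higher in podocyte-like cells is near it. Plasma cell-like cells, a single sum of 28 cells, had 0 UMIs of Tlr3, Tlr7 and Myd88, and a class against a mean that includes this zero could not be called lower for these 3 genes. By lowering that mean, the zero also raises the log2 differences of the other classes to it for these 3 genes. Without the plasma cell-like, dendritic-like, erythroid-like and smooth muscle and renin-like classes, a choice made after seeing the data, 31 calls were higher and 28 lower.

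**Figure D1:**
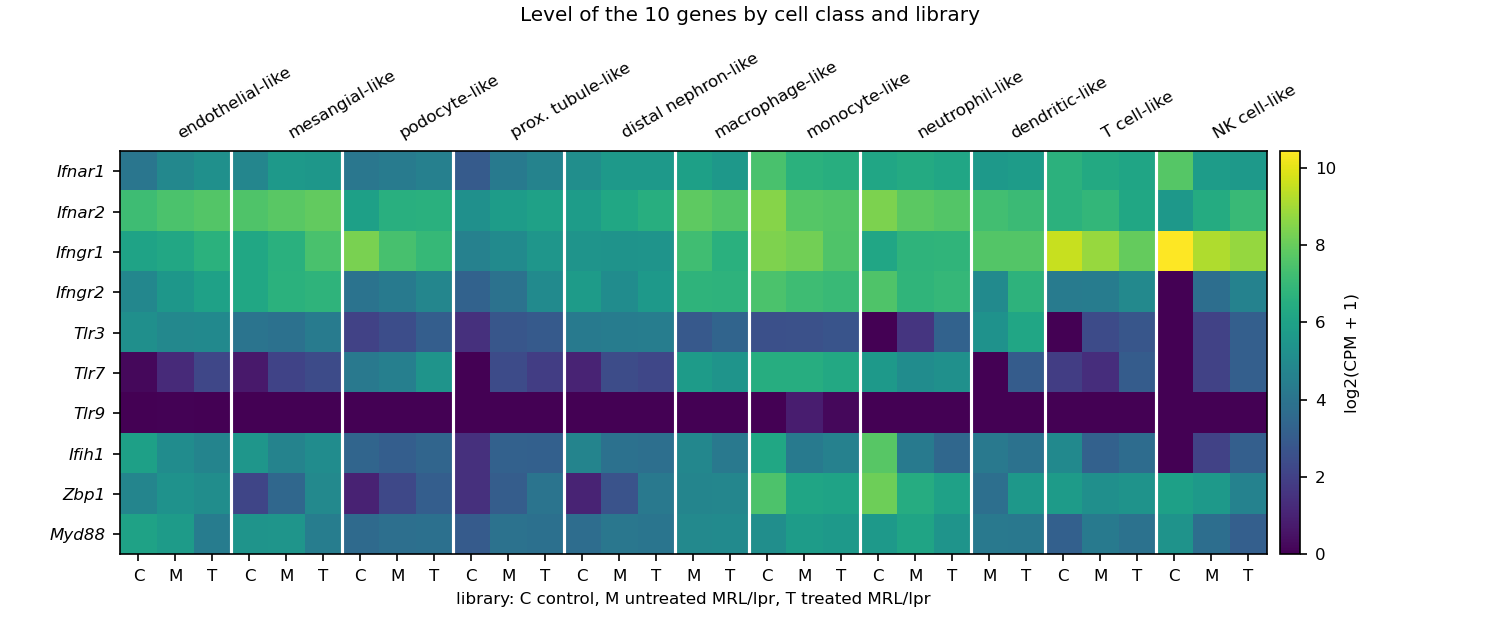
Level of each of the 10 genes (rows) as log2 of CPM plus 1 (colour) in 11 cell classes, with 1 column for each library of at least 20 cells (C control, M untreated MRL/lpr, T treated MRL/lpr). Ifngr1 is brightest in NK cell-like and T cell-like cells, Tlr7 stands out in podocyte-like, macrophage-like, monocyte-like and neutrophil-like cells, and Tlr9 is dark throughout.

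Ifnar1, the chain of the type I receptor that recruits Tyk2, was at 173 CPM in monocyte-like cells of control mice, 99.3 in untreated and 91.5 in treated MRL/lpr mice. Monocyte-like cells were 1.71 higher on the log2 scale than the mean of the other classes (SE 0.22, edgeR adjusted p = 1.5e-07). T cell-like cells came next, at 102, 80.0 and 69.0 CPM, and did not differ from monocyte-like cells beyond the spread (log2 difference 0.73, edgeR adjusted p = 0.104). Its level was low in endothelial-like cells, at 16.1, 28.3 and 37.0 CPM (log2 -0.92, SE 0.26, edgeR adjusted p = 0.0056; -0.49 without the control library), and in podocyte-like cells, at 16.5, 19.4 and 22.3 CPM (log2 -1.17, SE 0.28, edgeR adjusted p = 0.00078). The lowest monocyte-like library was above the highest endothelial-like and podocyte-like one. In NK cell-like cells the call rested on the control library, with 204 CPM there against 53.8 and 47.5, and the log2 difference was 0.16 without it in place of 1.1. Without the untreated MRL/lpr library the calls in T cell-like (0.98), endothelial-like (-0.86) and podocyte-like cells (-1.28) were no longer made, nor were those in neutrophil-like (0.78, and 1.23 without the treated library) and NK cell-like cells (1.58).

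Ifnar2, the chain that binds type I interferon most tightly and recruits Jak1, had a flatter profile. It was at 189, 215 and 242 CPM in mesangial-like cells of control, untreated and treated mice (log2 0.82, SE 0.20, edgeR adjusted p = 0.0014) and at 145, 175 and 197 CPM in endothelial-like cells (log2 0.42, SE 0.21, edgeR adjusted p = 0.15). These classes did not differ from each other beyond the spread (log2 0.38, edgeR adjusted p = 0.374), whereas mesangial-like cells were above podocyte-like cells, at 60.5, 94.8 and 96.4 CPM (log2 1.21, edgeR adjusted p = 0.00081). The top of the order was monocyte-like (194 to 371 CPM), neutrophil-like (198 to 328), mesangial-like and macrophage-like cells (193 to 229), and no neighbours among these 4 differed beyond the spread. Proximal tubule-like cells, at 36.9 to 62.3 CPM, were lower than the other classes (log2 -1.19, SE 0.26, edgeR adjusted p = 0.00028). Without the untreated MRL/lpr library the calls in mesangial-like (0.87), macrophage-like (0.84, and 0.99 without the treated library), neutrophil-like (log2 1.1) and proximal tubule-like cells (-1.18) were no longer made. Ifnar2 was measured in every class of at least 20 cells, with the renal epithelial classes at the low end. In mesangial-like cells 72.6%, 55.5% and 58.3% of the cells of control, untreated and treated mice had an Ifnar2 UMI, and 16.2%, 18.6% and 20.8% when each cell was thinned to 1000 UMIs.

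Ifngr1, the ligand-binding chain of the interferon gamma receptor, had its highest levels in lymphocytes. NK cell-like cells were at 1374 CPM in control, 582 in untreated and 443 in treated mice, and T cell-like cells at 738, 451 and 246 CPM. Against the other classes the log2 difference was 2.67 in NK cell-like cells (SE 0.26, edgeR adjusted p = 8.6e-10) and 1.98 in T cell-like cells (SE 0.25, edgeR adjusted p = 1.4e-07), and these classes did not differ from each other beyond the spread (log2 0.65, edgeR adjusted p = 0.528). Podocyte-like cells were the highest of the resident renal classes, at 320, 168 and 126 CPM. They were above endothelial-like cells, at 64.9, 74.3 and 99.0 CPM (log2 1.59, edgeR adjusted p = 0.00084), and above mesangial-like cells, at 73.6, 95.9 and 170 CPM (log2 1.03, edgeR adjusted p = 0.0294), though in treated mice mesangial-like cells had the higher value. The call of podocyte-like cells against the mean of all other classes (log2 0.88, SE 0.27, edgeR adjusted p = 0.0081) was lost without the control library (0.42), without the untreated library (0.85), and at 0.51 without the 4 classes named before. The lower call in endothelial-like cells was lost without the control (-0.47) and without the untreated library (-0.72), and the higher call in monocyte-like cells without the untreated library (1.19). Distal nephron and collecting duct-like cells were near the low end, at 41.7, 39.4 and 41.6 CPM (log2 -1.86, SE 0.35, edgeR adjusted p = 4.9e-05).

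Ifngr2, the chain that recruits Jak2 and completes the receptor, was low in the lymphocytes and podocyte-like cells where Ifngr1 was high. Monocyte-like cells were above the mean of the other classes for both chains, with the limit on Ifngr1 given above. It was lowest in NK cell-like cells, with 0, 4 and 3 UMIs in control, untreated and treated mice, where the 0 of the control library allows up to 3 UMIs. T cell-like cells had 19.2, 19.7 and 28.6 CPM (log2 -1.06, SE 0.31, edgeR adjusted p = 0.0083; without the untreated library -1.06 and no call) and podocyte-like cells had 14.7, 18.6 and 26.8 CPM (log2 -1.14, SE 0.27, edgeR adjusted p = 0.00092). By contrast, monocyte-like cells had 178, 145 and 132 CPM (log2 2.13, SE 0.21, edgeR adjusted p = 3.9e-10) and mesangial-like cells 72.2, 101 and 109 CPM (log2 1.12, SE 0.21, edgeR adjusted p = 8.5e-05). The lowest mesangial-like library was above the highest endothelial-like one, at 27.7, 44.2 and 60.8 CPM (log2 1.19, edgeR adjusted p = 0.00146). Without the untreated MRL/lpr library the calls against all other classes in NK cell-like (-2.39), macrophage-like (1.25) and mesangial-like cells (1.0) were no longer made.

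The balance of the receptor chains differed by class, which the ratio of their UMIs shows without any scaling to depth. In mesangial-like cells there were 1.02 Ifngr1 UMIs per Ifngr2 UMI in control (95% interval 0.943 to 1.1), 0.945 in untreated (0.869 to 1.03) and 1.55 in treated mice (1.46 to 1.66). In NK cell-like cells of control mice there were 209 Ifngr1 UMIs and 0 Ifngr2 UMIs, a ratio whose 95% interval starts at 56.2, and in the MRL/lpr mice it was 46.0 and 18.7. In podocyte-like cells the ratio was 21.8 (19.3 to 24.8), 9.07 (7.60 to 10.9) and 4.71 (3.36 to 6.74), and in T cell-like cells it was 38.4 (18.4 to 96.5), 22.8 (16.5 to 32.5) and 8.59 (6.28 to 12.0). Podocyte-like and T cell-like cells thus lay above mesangial-like, endothelial-like, macrophage-like and monocyte-like cells in each library measured, and their ratios were closer to those classes in treated mice. RNA from outside cells also made up a larger share of the UMIs in treated than in control mice, 17.6% against 3.09% in podocyte-like cells and 17.7% against 5.02% in T cell-like cells, and its part in the ratios was not tested.

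**Figure D2:**
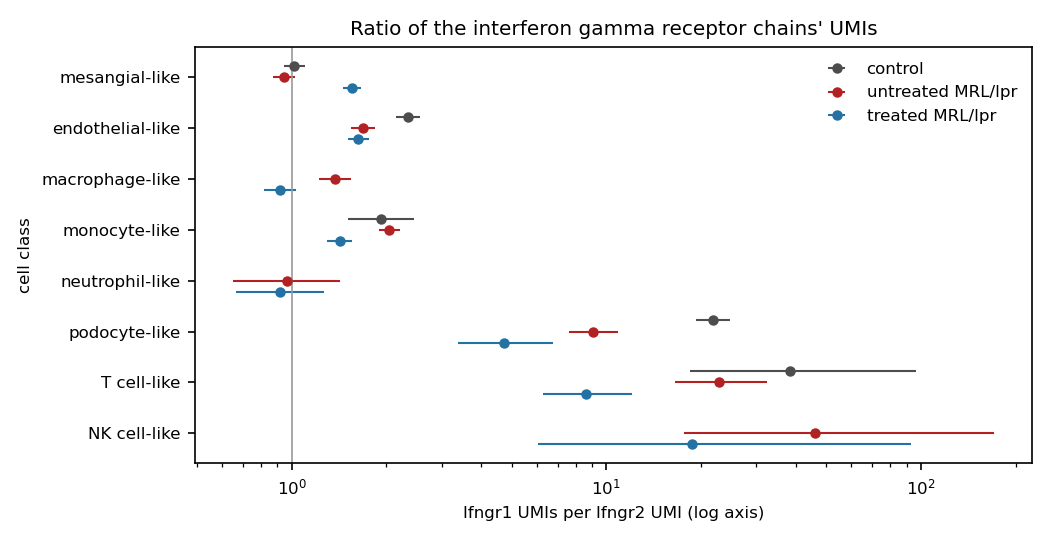
Ifngr1 UMIs per Ifngr2 UMI (log axis) in 8 cell classes, with 1 point for each library and bars for 95% exact binomial intervals of counting error. Mesangial-like, macrophage-like and neutrophil-like cells lie between 0.917 and 1.55, endothelial-like and monocyte-like cells between 1.42 and 2.34, and podocyte-like, T cell-like and NK cell-like cells between 4.71 and 46.0, where both chains were detected.

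Among the large classes, Tlr3 was highest in endothelial-like cells. In these it was at 35.4 CPM in control (95% interval 33.3 to 37.7), 28.1 in untreated (25.8 to 30.6) and 30.1 in treated mice (27.6 to 32.8), which was 2.28 above the other classes on the log2 scale (SE 0.31, edgeR adjusted p = 3.2e-07). It was 2.14 without the treated library, and so without the plasma cell-like sum. Erythroid-like cells, at 3.79 to 11.4 CPM, were also called higher (log2 1.83, SE 0.51, edgeR adjusted p = 0.021). That call was lost without the untreated (2.0) and without the control library (1.30). Mesangial-like cells, at 15.2, 13.8 and 19.3 CPM, were lower (log2 0.93 for endothelial-like over mesangial-like cells, edgeR adjusted p = 0.0092). Podocyte-like cells were lower still, at 3.22, 4.58 and 7.66 CPM (log2 2.56 for endothelial-like over podocyte-like cells, edgeR adjusted p = 6.3e-08), and the highest podocyte-like library was below the lowest of both. Free RNA held Tlr3 at 9.48, 10.1 and 13.4 CPM. Distal nephron and collecting duct-like cells were at 18.7, 19.7 and 20.3 CPM (log2 1.56, SE 0.44, edgeR adjusted p = 0.0047). Dendritic-like cells, a type known to sense double-stranded RNA through Tlr3, had 39.2 CPM in untreated (9 UMIs in 22 cells) and 70.3 CPM in treated mice (49 UMIs in 77 cells), with a log2 difference of 3.33 (SE 0.42, edgeR adjusted p = 8.1e-07), and did not differ from endothelial-like cells beyond the spread (log2 0.97, edgeR adjusted p = 0.0816). The calls in distal nephron and collecting duct-like cells (1.48 without the untreated library) and dendritic-like cells (2.34 without the treated library) were no longer made without that library. The call of mesangial-like cells against the other classes (log2 1.28, SE 0.42, edgeR adjusted p = 0.02) was lost without the untreated (1.28) and without the treated library (0.89), and was made in 4 of the 11 alternatives. A UMI of Tlr3 was seen in 15.3%, 11.9% and 10.6% of endothelial-like cells, and in 3.51%, 3.09% and 2.94% after thinning to 1000 UMIs, against 0.238%, 0.473% and 1.26% of thinned podocyte-like cells.

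Tlr7 had the sharpest class pattern of the endosomal receptors. Monocyte-like cells were highest, at 88.4 CPM in control (95% interval 66.4 to 115), 89.1 in untreated (82.0 to 96.7) and 77.6 in treated mice (71.0 to 84.7), with a log2 difference of 4.90 to the other classes (SE 0.32, edgeR adjusted p = 7.1e-14). It was 3.95 without the 4 classes named before, and from 4.45 to 5.76 with each library left out. Macrophage-like cells had 51.6 and 40.6 CPM in untreated and treated mice (log2 3.58, SE 0.39, edgeR adjusted p = 1.1e-08), and neutrophil-like cells had 46.8, 32.4 and 36.8 CPM (log2 3.20, SE 0.58, edgeR adjusted p = 7.6e-05), from 2, 16 and 25 UMIs. Free RNA made up 26.8% and 29.9% of the UMIs in neutrophil-like cells of untreated and treated mice.

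Podocyte-like cells followed, at 17.5 CPM in control (320 UMIs, 95% interval 15.6 to 19.5), 21.9 in untreated (163 UMIs, 18.7 to 25.6) and 40.9 in treated mice (64 UMIs, 31.5 to 52.2). This was 2.98 above the mean of the other classes on the log2 scale (SE 0.40, edgeR adjusted p = 1.9e-07) and 1.93 without the 4 classes named before. Pairwise, podocyte-like cells exceeded endothelial-like cells by 4.47 (edgeR adjusted p = 1.7e-10), mesangial-like cells by 3.65 (edgeR adjusted p = 6.6e-09), T cell-like cells by 3.10 (edgeR adjusted p = 2.6e-05) and proximal tubule-like cells by 3.08 (edgeR adjusted p = 2.5e-05). They were below monocyte-like cells by 1.78 (edgeR adjusted p = 0.00016) and did not differ from macrophage-like cells beyond the spread (log2 0.55 for macrophage-like over podocyte-like cells, edgeR adjusted p = 0.322). The lowest podocyte-like library, at 17.5 CPM, was above the highest endothelial-like and mesangial-like libraries, at 3.62 and 4.2 CPM.

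**Figure D3:**
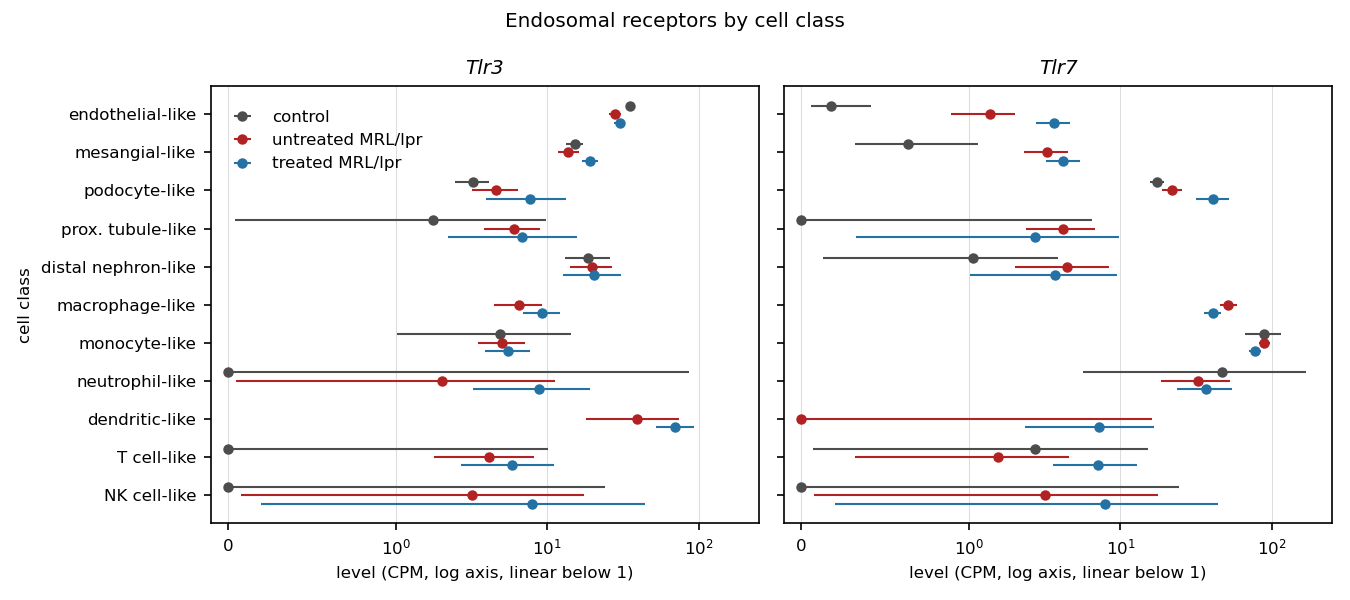
Levels of Tlr3 (left) and Tlr7 (right) in CPM (log axis, linear below 1) by cell class, with 1 point for each library of at least 20 cells and bars for 95% exact Poisson intervals of counting error. Tlr3 is highest in endothelial-like and dendritic-like cells and Tlr7 in monocyte-like, macrophage-like, neutrophil-like and podocyte-like cells, where the lowest podocyte-like library is at 17.5 CPM.

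A Tlr7 UMI was found in 10.8%, 13.2% and 14.8% of podocyte-like cells of control, untreated and treated mice, whose median depths were 6809, 6987.5 and 3182.5 UMIs. In endothelial-like cells, at median depths of 4292, 3767 and 2926 UMIs, the shares were 0.0920%, 0.583% and 1.37%. After thinning to 1000 UMIs the podocyte-like shares were 1.63%, 2.27% and 2.83%, against 0%, 0.178% and 0.319% in endothelial-like cells. The share in podocyte-like cells was thus well above that in a class with hardly any Tlr7.

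Markers of monocytes were compared in the same podocyte-like cells. Of 8 monocyte markers, 6 had a UMI in control and 8 in both MRL/lpr libraries, with Chil3 and Treml4 at 0 in control mice. Summed, they were at 15.5 CPM in control, 51.3 in untreated and 116 in treated mice, which was 0.335%, 1.44% and 4.08% of their level in monocyte-like cells. These markers, unlike Tlr7, were used in the gate, which left out cells that met both classes without a clear lead. Their low level is thus set in part by the gate and is no even measure beside Tlr7. This also holds for the marker levels given for other classes below. Tlr7 in podocyte-like cells was at 19.7%, 24.6% and 52.7% of its monocyte-like level in those libraries. Against macrophage-like cells, Tlr7 was at 42.5% in untreated and 101% in treated mice. Tlr8 and Tlr13, endosomal RNA receptors of myeloid cells, had 0 UMIs in podocyte-like cells of control mice and 2 or 3 UMIs in each MRL/lpr library. Free RNA held Tlr7 at 7.15, 9.37 and 20.2 CPM, below the podocyte-like level in each library. Unc93b1, which carries nucleic acid sensing receptors to endosomes, was at 16.8, 22.9 and 44.0 CPM in podocyte-like cells and was lower there than in the other classes (log2 -1.0, edgeR adjusted p = 0.0005).

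**Figure D4:**
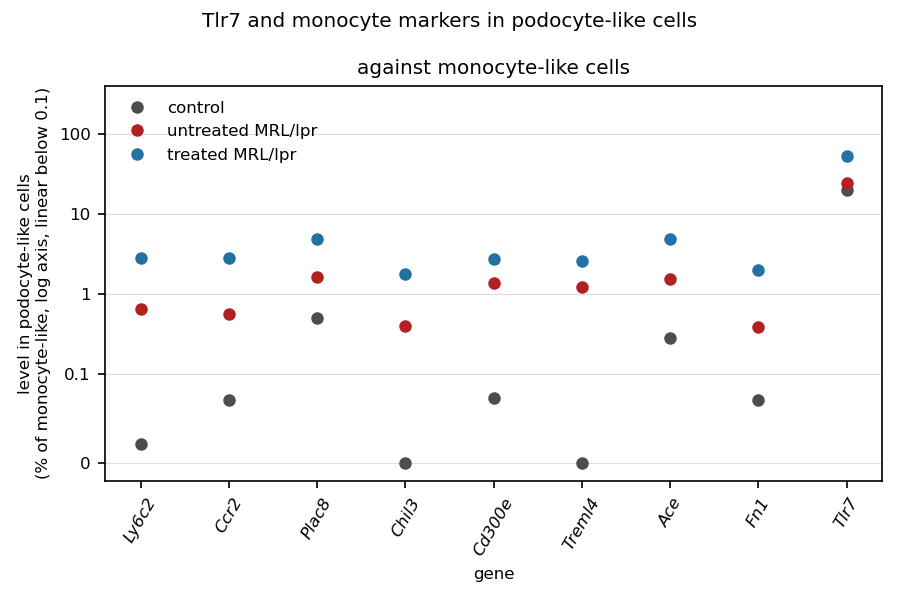
Level in podocyte-like cells as a percentage of the level in monocyte-like cells (log axis, linear below 0.1) for the 8 monocyte markers and for Tlr7, with 1 point for each of the 3 libraries. Tlr7 lies at 19.7% to 52.7% of its monocyte-like level, above all 8 markers in each library. The markers were used in the gate and Tlr7 was not, so the gate sets their low level in part.

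Tlr9 was hardly detected. It had 0 UMIs in the kept cells of control mice, 8 in untreated and 2 in treated MRL/lpr mice, and 5 of the 8 and 1 of the 2 were in monocyte-like cells. In endothelial-like cells of control mice, 0 UMIs allow a level of up to 0.107 CPM. B cell-like cells, in which Tlr9 is usually found, numbered 8, 8 and 15, and plasmacytoid dendritic-like cells numbered 2 in untreated and 5 in treated mice, so Tlr9 in these classes was not detectable at this depth.

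Ifih1 was highest in endothelial-like cells of control mice among the large resident classes. It was at 59.5 CPM in control (95% interval 56.7 to 62.4), 32.5 in untreated (30 to 35.2) and 25.1 in treated mice (22.8 to 27.6), with a log2 difference of 0.94 to the other classes (SE 0.25, edgeR adjusted p = 0.0037). Mesangial-like cells, at 43.0, 24.0 and 32.8 CPM, did not differ from them beyond the spread (log2 0.11, edgeR adjusted p = 0.852). Podocyte-like cells were low in every library, at 9.65, 7.68 and 9.58 CPM (log2 1.90 for endothelial-like over podocyte-like cells, edgeR adjusted p = 3.5e-05), below the free RNA at 19.4, 19.4 and 18.9 CPM. The order of the leukocytes depended on the library. Monocyte-like cells had 73.6 CPM in control mice against 18.4 and 22.9 in the MRL/lpr mice. Neutrophil-like cells had 211, 18.2 and 10.3 CPM, from 7 to 9 UMIs a library. Without the untreated library the Ifih1 calls against the other classes were lost in endothelial-like (log2 1.04), mesangial-like (0.97), monocyte-like (1.24), macrophage-like (0.69) and podocyte-like cells (-1.22), and those of mesangial-like (0.78) and macrophage-like cells (1.20) also without the treated library. The lower call in NK cell-like cells, from 0, 1 and 1 UMIs, was lost without any 1 of the control (-1.92), untreated (-2.91) and treated libraries (-3.47).

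Zbp1 was called higher in monocyte-like and neutrophil-like cells alone. In monocyte-like cells it was at 180, 68.4 and 64.4 CPM (log2 2.47, SE 0.37, edgeR adjusted p = 2.0e-06) and in neutrophil-like cells at 281, 87.0 and 61.8 CPM (log2 2.28, SE 0.50, edgeR adjusted p = 0.00081; without the untreated library 2.37 and no call). Endothelial-like cells, at 25.6, 39.1 and 33.9 CPM, were below monocyte-like cells (log2 1.91 for monocyte-like over endothelial-like cells, edgeR adjusted p = 0.0031). They were above mesangial-like cells, at 3.55, 10.0 and 29.3 CPM (log2 1.38, edgeR adjusted p = 0.0385), and in treated mice that gap was small. Podocyte-like cells were lowest of the 13 classes with at least 2 libraries, at 0.982, 3.77 and 7.66 CPM (log2 -3.07, SE 0.57, edgeR adjusted p = 4.9e-05).

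Myd88, the adaptor of Tlr7, Tlr9 and most other Toll-like receptors, was at 63.5, 51.3 and 19.8 CPM in endothelial-like cells of control, untreated and treated mice (log2 1.46, SE 0.43, edgeR adjusted p = 0.0092; without the untreated library 1.48 and no call). The endothelial-like difference was 1.26 without the treated library. Monocyte-like cells had 34.4, 52.9 and 49.6 CPM (log2 1.95, SE 0.37, edgeR adjusted p = 9.4e-05; 0.94 without the treated library, which holds the plasma cell-like sum with 0 Myd88 UMIs), and did not differ from endothelial-like cells beyond the spread (log2 -0.45 for endothelial-like over monocyte-like cells, edgeR adjusted p = 0.291). Podocyte-like cells were at 11.2, 13.1 and 13.4 CPM, below endothelial-like cells in each library (log2 1.63, edgeR adjusted p = 0.00023). The call in neutrophil-like cells (log2 2.13, edgeR adjusted p = 0.0013) was lost without the untreated library (1.87), and the difference was 1.61 without the treated library. The podocyte-like levels were below those of free RNA, at 41.0, 35.1 and 27.5 CPM.

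Other genes of the same pathways, a list of 57 of which 50 were tested, are given as counts of calls against the shares of all genes named before. Monocyte-like cells had 30 of 50 higher and 0 lower, macrophage-like cells 24 higher and 2 lower, and neutrophil-like cells 22 higher and 0 lower. Among resident classes, endothelial-like cells had 18 higher and 5 lower and mesangial-like cells 15 higher and 4 lower. Podocyte-like cells had 2 higher, among them Irf3 (log2 0.58, edgeR adjusted p = 0.01), and 22 lower. T cell-like cells had 6 higher and 4 lower. The 15 of 50 in mesangial-like cells is near the 23.8% of all genes called higher there, and the 6 of 50 in T cell-like cells is near their 18.5%. Interferon gamma itself, Ifng, was in T cell-like cells at 104, 210 and 397 CPM in control, untreated and treated mice. Of the type I interferons on the list, Ifnb1 had at most 2 UMIs in any class of a library, and Ifna1, Ifna2 and Ifna4 had 0.

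The genes whose levels were most like a member's over the 38 sums, by Pearson's r of log2 levels among 14394 genes, are given as a description, since sums of 1 library share depth and free RNA. Nearest to Tlr7 were Chil1 (r = 0.85), Ear2 (0.85) and Trem3 (0.84), nearest to Zbp1 was Ptpre (0.91), and nearest to Ifih1 were Marcksl1 (0.79), Ddx60 (0.78) and Herc6 (0.78). For the receptors, Ifnar1 was nearest to Diaph1 (0.91), Ifnar2 to Ppp1r9b (0.87), Ifngr1 to Me2 (0.89) and Ifngr2 to Hmox1 (0.87). For Tlr3 the nearest was Trip10 (0.83) and for Myd88 it was Sin3a (0.84). Between members, r was 0.79 for Ifnar2 and Ifngr2, 0.74 for Ifnar1 and Ifngr1, 0.61 for Ifnar1 and Ifnar2, and -0.03 for Ifngr1 and Ifngr2, so the chains of the interferon gamma receptor did not follow each other across these sums.

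Treated and untreated MRL/lpr libraries were compared within each class as a ratio of CPM, with a minimum of 20 UMIs of the gene in the pair and of 50 cells of the class in each library. The 95% intervals are exact conditional binomial intervals, and the comparison is of 2 libraries. Over all classes 16 ratios of a member passed 2-fold in either direction (14.9% of all gene and class pairs), and 5 of the 16 were in erythroid-like cells, where the median of all genes was itself 1.57 higher on the log2 scale. In endothelial-like cells Tlr7 and Myd88 passed it (10.9% of all genes), in mesangial-like cells Zbp1 and Myd88 (10.9%), and in podocyte-like cells Zbp1 (11.3%). None did in macrophage-like (10.4%), monocyte-like (6.55%) or T cell-like cells (11.7%). The median of all genes was 0.13 higher on the log2 scale in both endothelial-like and mesangial-like cells. Within macrophage-like cells the macrophage markers shifted both ways. C1qa was at 4430 CPM in untreated and 2091 in treated mice and Mrc1 at 250 and 79.5. Trem2 was at 115 and 811 CPM and Cd68 at 482 and 787. The part of this shift in the macrophage-like ratios of this comparison was not tested.

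Myd88 had the largest lower ratios in these classes. In endothelial-like cells it went from 51.3 CPM (975 UMIs) in untreated to 19.8 CPM (344 UMIs) in treated mice, a log2 ratio of -1.38 (-1.56 to -1.20), and in mesangial-like cells from 42.7 to 20.2 CPM, a log2 ratio of -1.08 (-1.30 to -0.87). In monocyte-like and macrophage-like cells its ratios were -0.09 (-0.32 to 0.13) and 0.07 (-0.26 to 0.40). In podocyte-like cells it was 0.04 (-0.72 to 0.73) and in T cell-like cells -0.34 (-1.18 to 0.47), with intervals that include 0, and the differences between classes were not tested. Endothelial-like cells with a Myd88 UMI made up 20.4% in untreated and 7.21% in treated mice, or 5.40% and 1.67% after thinning to 1000 UMIs. The treated levels in both resident classes were below that of free RNA (27.5 CPM), and with free RNA subtracted the ratios were -1.51 and -1.22.

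Zbp1 in mesangial-like cells was higher, at 10.0 CPM (114 UMIs) in untreated and 29.3 CPM (419 UMIs) in treated mice, a log2 ratio of 1.55 (1.25 to 1.86), and 1.97 with 200 to 3000 genes a cell and marked doublets removed. In endothelial-like cells its ratio was -0.20 (-0.36 to -0.04) and in monocyte-like cells -0.09 (-0.28 to 0.11). Monocyte markers were also higher in mesangial-like cells of treated mice, at 4.60% of their monocyte-like level against 2.11%, with 8 of 8 detected in both libraries. Macrophage markers were at 1.99% of their macrophage-like level in untreated and 3.41% in treated mice, with 10 of 10 detected, or 0.992% and 2.60% without Mrc1, and the part of either list in the Zbp1 ratio was not tested. Free RNA held Zbp1 at 20.5 and 28.5 CPM, near or above the mesangial-like levels, and the ratio with free RNA subtracted was 1.79. In podocyte-like cells Zbp1 had a ratio of 1.02 from 28 and 12 UMIs, with an interval from -0.09 to 2.04.

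Tlr7 in endothelial-like cells was at 1.37 CPM in untreated and 3.62 CPM in treated mice (log2 1.40, 0.72 to 2.12), both below its level in free RNA, and these values are not read as a difference of the cells. In podocyte-like cells its ratio was 0.90 (0.46 to 1.32), and monocyte markers there were at 1.44% and 4.08% of their monocyte-like level. In monocyte-like cells it was -0.20 (-0.37 to -0.03).

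Ifngr1 had ratios on both sides of 0, with none past 2-fold in the large classes. In mesangial-like cells its log2 ratio was 0.82 (0.72 to 0.93) and in endothelial-like cells 0.41 (0.31 to 0.52). Among leukocytes, T cell-like cells had -0.87 (-1.05 to -0.70), and in monocyte-like cells it was -0.67 (-0.77 to -0.56) and in macrophage-like cells -0.62 (-0.78 to -0.46). In podocyte-like cells it was -0.41 (-0.64 to -0.20). Each of these intervals excludes 0, and mesangial-like and endothelial-like cells were alone among these 6 classes in having a ratio above 0. Free RNA held Ifngr1 at 101 CPM in untreated and 116 CPM in treated mice. In untreated mice the mesangial-like (95.9 CPM) and endothelial-like levels (74.3 CPM) were below it. The other classes, from 151 CPM in macrophage-like to 451 CPM in T cell-like cells, were above it. The part of free RNA in these ratios was not tested.

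Untreated MRL/lpr and control libraries were compared in the same way, and both comparisons share the untreated library. There were 16 ratios past 2-fold over all classes (19.2% of all gene and class pairs), 5 of them in proximal tubule-like cells, of which control mice had 59. In endothelial-like cells Tlr7 passed it (18.0% of all genes), in mesangial-like cells Tlr7 and Zbp1 (17.3%), in podocyte-like cells Zbp1 (16.9%), in monocyte-like cells Ifih1 and Zbp1 (19.4%) and in T cell-like cells Ifih1 and Myd88 (22.3%), the last from 3 control UMIs with a log2 ratio of 1.14 (-0.52 to 3.49). Within monocyte-like cells, of which control mice had 121, the monocyte markers shifted both ways. Ly6c2 was at 764 CPM in control and 205 in untreated mice and Chil3 at 180 and 103. Treml4 was at 182 and 322 CPM and Cd300e at 223 and 283. The part of this shift in the monocyte-like ratios of this comparison, those of interferon-induced genes included, was not tested.

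Ifih1 was lower in untreated MRL/lpr than in control mice in monocyte-like, T cell-like, endothelial-like and mesangial-like cells. In monocyte-like cells the log2 ratio was -2.0 (-2.51 to -1.47), from 73.6 to 18.4 CPM, and in T cell-like cells -1.86 (-3.06 to -0.61), from 11 and 16 UMIs. In endothelial-like cells it was -0.87 (-1.01 to -0.74), from 59.5 to 32.5 CPM, and in mesangial-like cells -0.84 (-1.05 to -0.64), from 43.0 to 24.0 CPM. The podocyte-like ratio was -0.33 (-0.79 to 0.11), with an interval that includes 0. Proximal tubule-like cells had 32 UMIs in untreated and 1 in control mice, a ratio of 2.25 (-0.33 to 7.60).

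Zbp1 went both ways, with a log2 ratio of -1.40 (-1.70 to -1.08) in monocyte-like cells, 0.61 (0.46 to 0.76) in endothelial-like cells, 1.5 (1.04 to 1.97) in mesangial-like cells and, from 18 and 28 UMIs, 1.94 (1.04 to 2.88) in those of the podocyte-like class. In endothelial-like cells, monocyte markers were at 5.21% of their monocyte-like level in control and 10.1% in untreated mice, or 0.369% and 1.34% without Plac8. Monocyte markers in mesangial-like cells were at 0.486% of their monocyte-like level in control mice, with Ly6c2, Ccr2 and Chil3 at 0 and 5 of 8 detected, and at 2.11% in untreated mice. In podocyte-like cells these markers were at 0.335% and 1.44%, and free RNA, which held Zbp1 at 12.4 and 20.5 CPM, made up 3.09% and 11.3% of the UMIs, beside Zbp1 levels of 0.982 and 3.77 CPM in the cells. The part of the markers and of free RNA in the Zbp1 ratios was not tested. Tlr7 in endothelial-like and mesangial-like cells had log2 ratios of 2.93 (1.53 to 4.67) and 2.35 (1.35 to 3.47), from 5 and 11 UMIs in control mice to 26 and 37 in untreated mice, at levels below free RNA. In podocyte-like cells the Tlr7 ratio was 0.33 (0.05 to 0.61), and -0.02 with 200 to 3000 genes a cell and marked doublets removed.

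Both chains of the type I receptor were higher in endothelial-like cells of untreated MRL/lpr mice, with log2 ratios of 0.81 (0.62 to 0.99) for Ifnar1 and 0.27 (0.21 to 0.34) for Ifnar2, and both were lower in monocyte-like cells, at -0.81 (-1.1 to -0.50) and -0.87 (-1.07 to -0.66). Ifnar1 in free RNA was at 16.8 CPM in control and 39.9 CPM in untreated mice, close to or above the endothelial-like levels of 16.1 and 28.3 CPM, and its part in the endothelial-like ratio was not tested (0.72 with free RNA subtracted). Ifngr1 was lower in podocyte-like cells, from 320 to 168 CPM (log2 -0.93, -1.02 to -0.84), in T cell-like cells (-0.71, -0.91 to -0.51) and in NK cell-like cells (-1.24, -1.53 to -0.95). The interval of each excludes 0, and the podocyte-like value rests on 5870 and 1251 UMIs.

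**Figure D5:**
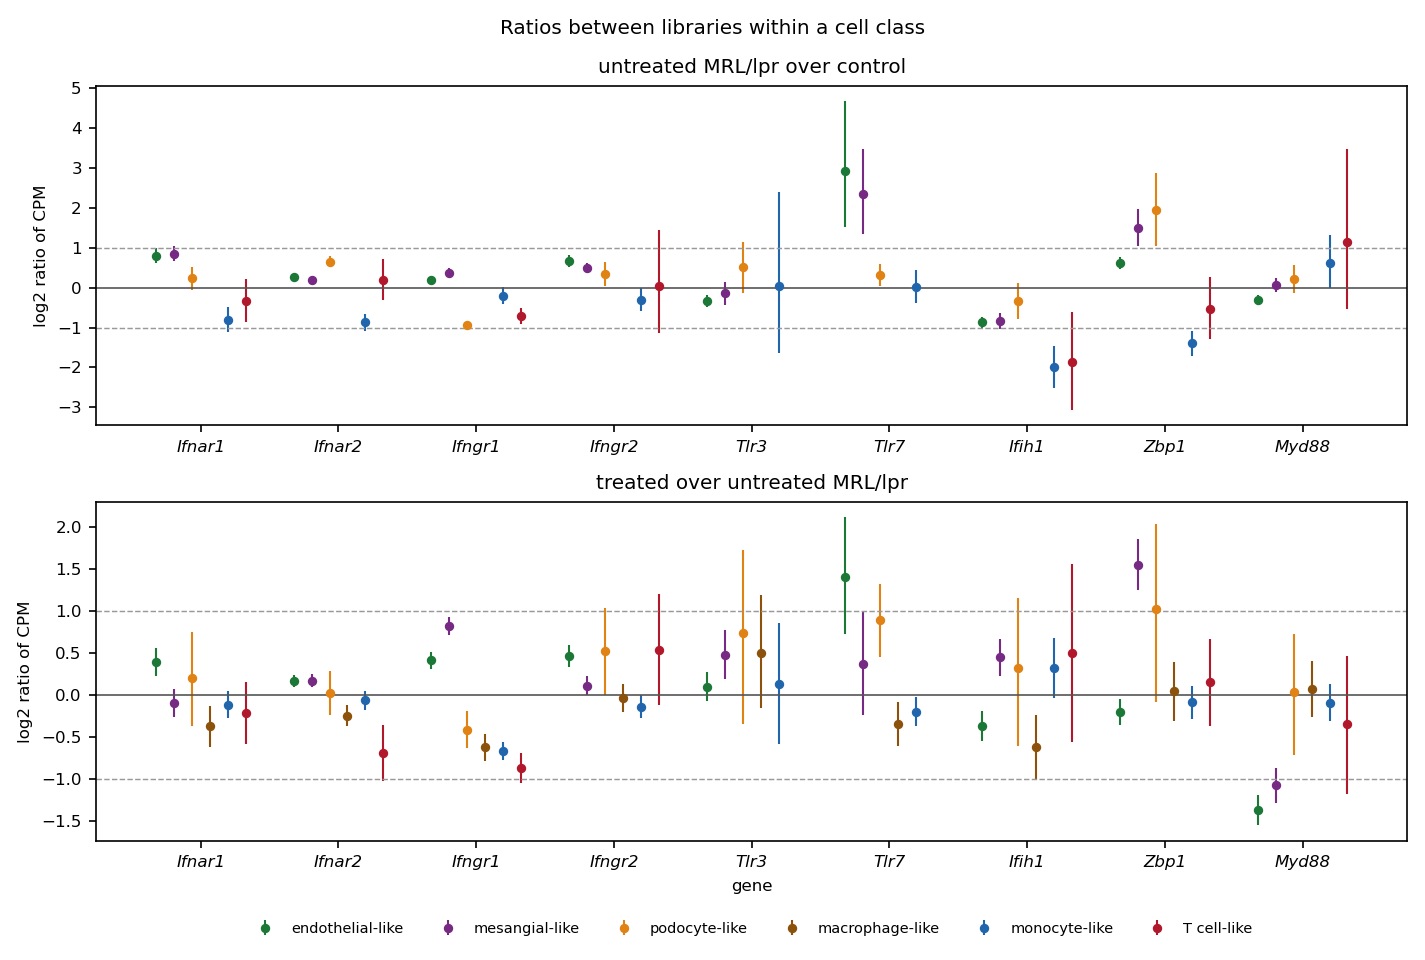
Log2 ratio of CPM between libraries for 9 of the 10 genes (Tlr9 had too few UMIs) in 6 cell classes, for untreated MRL/lpr over control (top, without macrophage-like cells, of which control mice had 7) and treated over untreated MRL/lpr mice (bottom). Points are ratios, bars are 95% exact conditional binomial intervals of counting error, and dashed lines mark 2-fold. Ifih1 lies at -2.0 in monocyte-like cells above, and Myd88 at -1.38 in endothelial-like and -1.08 in mesangial-like cells below.

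A list of 9 genes that interferon induces was read beside the receptors. Ifit1, an interferon-induced protein that binds viral RNA, was at 590, 236 and 41.8 CPM in endothelial-like cells of control, untreated and treated mice, and Isg15, a ubiquitin-like modifier, at 1686, 757 and 188 CPM. For untreated MRL/lpr over control mice, 5 of the 9 were lower past 2-fold in endothelial-like and in mesangial-like cells and 7 of the 9 in monocyte-like cells, with medians of -1.02, -1.15 and -2.41 on the log2 scale against 0.04, 0.02 and -0.10 for all genes. Of all genes, 900 of 14972, 790 of 14169 and 1109 of 11007 were lower past 2-fold in these classes. T cell-like cells went otherwise, with 3 of the 9 higher past 2-fold (Ifit2, Rsad2 and Cxcl10), 2 lower and a median of 0.16. Podocyte-like cells had Cxcl10 higher, 0 lower and a median of -0.41. For all genes, 1502 of 9098 were higher in T cell-like cells (median 0.09) and 1511 of 13205 in podocyte-like cells (median -0.03). The count of 1 higher in podocyte-like cells is near that share of all genes, and their median is below that of all genes. NK cell-like cells had 2 of 2 counted higher (Isg15 and Rsad2, median 1.77), where 283 of 3305 genes were higher (median -0.23). Proximal tubule-like cells had 2 of 8 higher (Rsad2 and Gbp2), 0 lower and a median of 0.09. That count is near the share of all genes there, 2199 of 10824 higher with a median of 0.26. For treated over untreated mice, 6 of the 9 were lower in endothelial-like cells (median -1.28, all genes 0.13, with 701 of 14838 genes lower past 2-fold). In mesangial-like cells 1 was lower (median -0.25, 814 of 14280 genes), and 0 were in monocyte-like and macrophage-like cells (medians 0.01 and 0.05). T cell-like cells had 2 lower (median -0.66, 845 of 10350 genes) and podocyte-like cells 1 of 8 counted (median -0.48, 467 of 11681 genes). Neutrophil-like cells had 3 of the 9 lower (median -0.90, all genes 0.18, 336 of 5993 genes). Neutrophil markers held a smaller median share of the UMIs in neutrophil-like cells of treated than of untreated mice. Free RNA made up 26.8% and 29.9% of these UMIs in untreated and treated mice. The part of either in the neutrophil-like ratios was not tested. In smooth muscle and renin-like cells 3 of 6 counted were higher past 2-fold (Rsad2, Cxcl10 and Gbp2), 0 were lower and the median was 0.99, where 563 of 5471 genes were higher and the median of all genes was 0.06. This class held 64 cells in untreated and 94 in treated mice, with free RNA at 19.0% and 17.3% of the UMIs. In treated mice its own markers held a smaller median share of the UMIs, and mesangial markers a larger one. The part of these in the ratios was not tested. Irf1, a transcription factor downstream of the interferon gamma receptor, had log2 ratios of -2.0 in endothelial-like and -2.20 in mesangial-like cells between treated and untreated mice, and Socs3, a feedback inhibitor of cytokine receptors, had -1.45 and -1.83. Both were among 5 pathway genes lower past 2-fold in each class, beside 3 of 45 counted higher in endothelial-like and 7 of 46 in mesangial-like cells. The pathway medians were -0.18 and 0.14, against 0.13 for all genes in both. Of all genes, 918 were higher and 701 lower of 14838, and 741 higher and 814 lower of 14280. Podocyte-like cells had 9 of 38 pathway genes higher and 0 lower (850 of 11681 genes higher). The 9 were Tlr2, Tlr4, Tlr6, Aim2, Nlrp3, Cd14, Irak2, Ikbke and Irf5. Monocyte markers in podocyte-like cells were at 1.44% and 4.08% of their monocyte-like level in untreated and treated mice. Free RNA made up 11.3% and 17.6% of the UMIs. In mesangial-like cells the values were 2.11% and 4.60%, and 12.5% and 16.3%. The part of either in the pathway counts of these classes was not tested.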

How the data were processed

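The deposited files are unfiltered droplet matrices of UMI counts per gene and barcode, 1 for each of 3 libraries (control, untreated MRL/lpr, treated MRL/lpr). Per the labels, the deposited counts come from Cell Ranger and mm10, and the version is given differently in the methods and in the file headers. Such counts depend on the annotation and on free RNA, and neither normalization nor correction was applied before deposit.

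Barcodes with at least 1000 UMIs and at most 10% mitochondrial UMIs were kept. A cell entered 1 of 16 classes (126 markers in all) with at least 3 UMIs over at least 2 markers of the class, at least 2 times the amount free RNA gives, and a lead of at least 3 times over the next class. Cells that met several classes were left out, which also removes part of the doublets, and Scrublet marks were applied in 1 alternative. Free RNA was profiled from barcodes with at most 100 UMIs. Its share in a class was estimated from markers of the other classes, which the gate also used. Ratios with free RNA subtracted rest on that estimate. The members and the marker, pathway and response lists were chosen with earlier results of these data known.

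Classes were compared with edgeR 4.0.16 in R 4.3.3 (quasi-likelihood test, TMM, class and library as terms, sums of at least 20 cells) and, as an alternative, with DESeq2 1.42.0. The p-values rest on the spread left after the class and library terms, estimated for each gene over all classes together. They do not measure the spread of the libraries of the compared classes alone, and the 3 libraries differ in condition. Libraries were compared by CPM ratios with exact conditional binomial 95% intervals (scipy 1.17.1), for genes with at least 20 UMIs and classes with at least 50 cells in both. A count of 0 was taken to allow 3 UMIs. Intervals and such limits cover counting error only. Levels of single classes carry exact Poisson intervals. For shares of cells with a UMI, cells were thinned to 1000 UMIs. The scripts were tested on simulated data. Gene positions came from GENCODE M21, where 32235 of 32285 identifiers matched, and promoters from RefSeq (GRCm38.p6). Named were the 10 genes, the pairs of classes that the levels bring together, and the 3 genes most like each member. Alternatives were other size factors, no filter on low counts, no library term, stricter gates and leaving out a library. The macrophage markers in podocyte-like cells and 1 pathway gene are not reported here.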

Additional observations from a re-analysis of the deposited data

Results flagged for a closer look

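Some genes had a ratio above 0 in one class and below 0 in another, with both 95% counting intervals off 0. With 1 library a condition, none of these differences was tested, and each is given as the gap between the log2 ratios of the classes farthest apart among the 6 large classes.

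For treated over untreated MRL/lpr mice, the gap was 0.766 for Ifnar1 (endothelial-like 0.39, macrophage-like -0.38) and 0.864 for Ifnar2 (mesangial-like 0.17, T cell-like -0.69). For Ifngr1 it was 1.70 (mesangial-like 0.82, T cell-like -0.87) and for Ifngr2 it was 0.602 (endothelial-like 0.46, monocyte-like -0.14). In untreated mice the mesangial-like Ifngr1 level was below that of free RNA. For Tlr7 it was 1.75 (endothelial-like 1.40, macrophage-like -0.35), and the endothelial-like level was below that of free RNA. For Ifih1 it was 1.07 (mesangial-like 0.45, macrophage-like -0.62) and for Zbp1 it was 1.75 (mesangial-like 1.55, endothelial-like -0.20). The macrophage markers in macrophage-like cells shifted between these libraries, as given before, and the part of this in the gaps was not tested.

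For untreated MRL/lpr over control mice, the gap was 1.66 for Ifnar1 (mesangial-like 0.86, monocyte-like -0.81), 1.52 for Ifnar2 (podocyte-like 0.65, monocyte-like -0.87) and 1.31 for Ifngr1 (mesangial-like 0.38, podocyte-like -0.93). For Zbp1 it was 3.34 (podocyte-like 1.94, monocyte-like -1.40), where podocyte-like cells rest on 18 and 28 UMIs. Their levels of 0.982 and 3.77 CPM were below the 12.4 and 20.5 CPM of Zbp1 in free RNA, whose share of their UMIs was 3.09% and 11.3%, and monocyte markers in them were at 0.335% and 1.44% of the monocyte-like level. The part of these in the gap was not tested.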

How the results depend on the processing

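Among the class differences of the 6 large classes, NK cell-like and neutrophil-like cells and the library ratios of the 6 large classes, none reversed under an alternative where the reported value was past its threshold. Ratios of the other classes entered only the counts past 2-fold, and TMM scaling moved the median of all genes in erythroid-like cells from 1.57 to 0.11 between treated and untreated mice. Without the untreated MRL/lpr library, the calls of a higher level were 14 in place of 34 and those of a lower level 4 in place of 19, and over the 3 left-out libraries the counts ran from 14 to 34 and from 4 to 22. With at least 2000 UMIs a cell, 29 calls were lower. In all 11 alternatives, 13 of the 34 higher calls (Tlr7 in podocyte-like, monocyte-like, macrophage-like and neutrophil-like cells among them) and 4 of the 19 lower calls were made. Ratios past 2-fold between treated and untreated mice numbered 10 with TMM-scaled sums and 9 with at least 50 UMIs, in place of 16. Those between untreated and control mice numbered 8 with 200 to 3000 genes a cell and marked doublets removed and 6 with at least 50 UMIs, in place of 16. For ratios of members in the 6 large classes, 534 alternative values lay within the counting interval of the reported one and 20 did not. For the 8 classes named above, 678 alternatives kept the side of the threshold, 65 lost a call and 49 gained one. No paired analysis was possible because each condition has 1 library. Few cells limited Tlr9 in B cell-like and plasmacytoid dendritic-like cells and the control values of macrophage-like cells.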

Other observations

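Cells that met no class numbered 468 in control, 1139 in untreated and 3402 in treated MRL/lpr mice (4.25%, 8.07% and 20.5% of the cells). Their Tlr7 level was 0, 23.6 and 32.7 CPM, their Ifngr2 level 21.2, 71.5 and 109 CPM, and their Ifnar1 level 25.3, 56.0 and 62.8 CPM. Tlr3, at 29.5, 18.8 and 14.0 CPM, and Ifih1, at 58.9, 22.8 and 24.6 CPM, were highest in the control library. Myd88 was at 62.6, 51.5 and 27.6 CPM, an order like that in endothelial-like cells. Cells that met several classes, 392, 1324 and 1083 in number, had Tlr7 at 4.04, 16.8 and 14.2 CPM, Myd88 at 42.6, 47.0 and 21 CPM and Ifih1 at 55.9, 28.0 and 24.9 CPM.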
